A study of Mus musculus with 34 samples.

Results

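A set of 8 genes of monocyte-derived macrophages, *Lyz2*, *Mpeg1*, *Lilrb4a*, *Gpr65*, *Ccr1*, *Msr1*, *Apobec1* and *AU020206*, was followed across 3 brain regions and 3 treatments, and all 8 were found by symbol among the 16389 genes of the deposited table. The genes had been selected on their high levels in GFP-BM REPOP against WT CON brains, with the cortex levels of *Lyz2* and *Apobec1* against GFP-BM CON also known. Values of GFP-BM REPOP against either control group are therefore descriptions, with standard errors and no test of single genes. Nothing is read from counts of genes that passed in these comparisons. RNA was sequenced in 34 libraries from 12 male C57BL/6 mice, of which 10 gave all 3 regions and 2 gave 2. WT CON mice were neither irradiated nor transplanted and received no inhibitor. GFP-BM CON mice received 1000 cGy of whole body irradiation followed by bone marrow from CAG-EGFP donors, in which a ubiquitous promoter drives the green fluorescent protein. GFP-BM REPOP mice received the same irradiation and marrow, then 3.5 months later the CSF1R inhibitor PLX3397 at 600 ppm in chow for 14 days, and then 6 months of control chow. Listed from WT CON over GFP-BM CON to GFP-BM REPOP, the libraries numbered 3, 4 and 4 for cortex, 4 each for hippocampus, and 4, 3 and 4 for thalamus, which was dissected together with the striatum. GFP-BM CON minus WT CON is called the transplant step, in which irradiation and transplant cannot be told apart. Its tests share the WT CON libraries with the difference that selected the genes. GFP-BM REPOP minus GFP-BM CON is called the repopulation step, which adds microglial depletion and the refilling of the brain that follows it.

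Microglia are seeded in the embryo from the yolk sac and renew themselves in the brain, with little input from the bone marrow. Irradiation with a marrow transplant lets some marrow-derived monocytes enter the brain, and emptying the microglial niche with a CSF1R inhibitor in such animals lets many more settle there as macrophages. The genes followed here belong to the equipment of such cells. *Lyz2* encodes lysozyme M, which cleaves bacterial cell walls, and *Mpeg1* encodes perforin-2, a pore-forming protein of phagocytes that microglia also express. *Lilrb4a* encodes an inhibitory immunoglobulin-like receptor, *Gpr65* a receptor that senses extracellular protons, *Ccr1* a receptor for inflammatory chemokines, and *Msr1* the class A scavenger receptor that takes up modified lipoproteins. *Apobec1* encodes the cytidine deaminase that edits *Apob* mRNA and 3′ ends of other transcripts in macrophages, and *AU020206* is a long non-coding RNA whose function is not described here. Whole tissue was sequenced, so more cells that express a gene and more RNA per cell cannot be told apart.

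Reads recovered from the FPKM values (reads scaled to gene length and library size) ranged from 17085018 to 26010509 per library. The labelled regions were checked against marker genes. Summed levels of 5 cortex markers were 150 to 196 FPKM in cortex libraries and 40.4 to 57.9 in thalamus libraries. In the hippocampus they were 60.0 to 66.1 in WT CON, 45.1 to 59.7 in GFP-BM CON and 73.6 to 191 in GFP-BM REPOP libraries, so the repopulated hippocampi carried more cortex-type RNA. GFP-BM REPOP hippocampus replicate 4 stood apart, with hippocampus markers at 16.2 FPKM against 46.2 to 123 in the other 3 and striatum markers at 1231 against 56.4 to 140. Choroid plexus markers (*Ttr*, *Kl*, *Folr1*, *Kcnj13* and 1 other) ranged from 21.9 to 6467 FPKM in the hippocampus, and their highest values lay in WT CON replicate 1 and in GFP-BM CON replicates 3 and 4. Thalamus markers in the hippocampus summed to 24.2 to 66.4 FPKM in WT CON and 41.3 to 77.3 in GFP-BM CON libraries. In GFP-BM REPOP they summed to 16.3 to 26.6, below every GFP-BM CON library there. Hippocampus markers did not separate hippocampus from thalamus, at 65.5 to 87.7 FPKM and 80.8 to 92.9 in GFP-BM CON. The part of these dissection differences in the hippocampus results was not tested. Repopulation steps in the hippocampus are therefore also given without GFP-BM REPOP replicate 4.

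In the mouse genome build GRCm38.p6, *Lyz2* spans chr10:117277541-117282272 and *Lilrb4a* spans chr10:51490898-51496613. *Mpeg1* spans chr19:12460770-12465285, *Gpr65* chr12:98268635-98276722, *Ccr1* chr9:123962126-123968692 and *Msr1* chr8:39543232-39642750. *Apobec1* spans chr6:122577792-122603024, and the gene named *AU020206* in RefSeq spans chr7:75769038-75782120. The deposited row of *AU020206* carries another gene identifier (100504230) than RefSeq (108167440) and was matched by symbol alone, so its locus and promoter are those of the RefSeq entry. Promoter sequences of 6 of the 8 were found in the RefSeq table, and their 250 bases upstream of the start were searched on both strands for the core GAGGAA of the myeloid factor PU.1, which 23.3% of all 32851 promoters of that length hold. It was present in 3 of the 6, those of *Ccr1*, *Gpr65* and *AU020206*. These 3 are printed because they hold the letters, in capitals, which read TTCCTC where the match is on the other strand, and that of *Lyz2* because it has the highest level of the 8 without holding them. The first base of the match lies 129 bases upstream of the start in *Ccr1*, 48 in *Gpr65* and 117 in *AU020206*. The windows are *Ccr1* at chr9:123968693-123968942 on the minus strand, *Gpr65* at chr12:98268385-98268634 on the plus strand, *AU020206* at chr7:75782121-75782370 on the minus strand and *Lyz2* at chr10:117282273-117282522 on the minus strand. Each is written from 5′ to 3′ on the strand of its gene:
Ccr1: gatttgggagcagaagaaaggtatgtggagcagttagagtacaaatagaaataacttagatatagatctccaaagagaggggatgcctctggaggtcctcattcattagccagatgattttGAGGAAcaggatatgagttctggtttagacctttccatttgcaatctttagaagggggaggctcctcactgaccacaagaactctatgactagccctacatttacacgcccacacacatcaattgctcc
Gpr65: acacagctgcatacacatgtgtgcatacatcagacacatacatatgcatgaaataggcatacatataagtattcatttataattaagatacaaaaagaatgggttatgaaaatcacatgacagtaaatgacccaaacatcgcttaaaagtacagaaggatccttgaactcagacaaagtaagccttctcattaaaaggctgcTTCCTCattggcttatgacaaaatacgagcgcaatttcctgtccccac
AU020206: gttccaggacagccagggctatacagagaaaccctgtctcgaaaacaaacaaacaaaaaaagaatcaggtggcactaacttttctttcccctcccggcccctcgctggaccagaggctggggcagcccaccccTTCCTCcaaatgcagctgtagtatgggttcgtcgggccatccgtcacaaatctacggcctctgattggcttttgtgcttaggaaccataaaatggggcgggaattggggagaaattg
Lyz2: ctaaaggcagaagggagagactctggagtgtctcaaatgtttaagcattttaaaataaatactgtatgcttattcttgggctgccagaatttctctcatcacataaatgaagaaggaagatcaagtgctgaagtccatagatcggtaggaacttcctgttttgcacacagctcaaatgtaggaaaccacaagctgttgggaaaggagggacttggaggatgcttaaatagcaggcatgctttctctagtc
The core TTGCNNAA of C/EBP factors was found in 0 of the 6 and in 9.56% of all promoters, and TGANTCA of AP-1 in 0 and 6.75%. Such a match is a description of letters and not of a bound site.

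After repopulation the means of the 8 genes in the cortex and thalamus were 1.64 to 7.01 times and 1.73 to 4.24 times those of GFP-BM CON. In the hippocampus these means were 1.38 times (*Lilrb4a*) to 3.76 times (*Gpr65*) those of GFP-BM CON. After transplant alone they ran from 0.944 times WT CON (*Mpeg1*) to 3.08 times (*Ccr1*) in the cortex, from 1.18 times (*Mpeg1*) to 4.66 times (*Lilrb4a*) in the hippocampus, and from 0.997 times (*Mpeg1*) to 5.97 times (*Msr1*) in the thalamus. On the scale of log2(FPKM + 0.1), the median transplant step of the 8 was 0.40, 0.74 and 0.72 for cortex, hippocampus and thalamus, beside 0.02, -0.03 and -0.06 over all 14710 genes tested. The median repopulation step was 1.52, 0.73 and 1.28 in the same order, beside -0.01 over all genes in each region. Non-overlap was then counted. All repopulated libraries exceeded all GFP-BM CON libraries for 8 of 8 genes in cortex (1.41% of all genes tested), 2 of 8 in hippocampus (4.12%) and 8 of 8 in thalamus (2.32%). Since the genes were selected on their high GFP-BM REPOP levels, nothing is read from these counts. All GFP-BM CON libraries exceeded all WT CON libraries for 1 of 8 in cortex (11.5%), 2 of 8 in hippocampus (5.42%) and 6 of 8 in thalamus (14.6%). For the difference that selected the genes, GFP-BM REPOP above WT CON, the counts were 8 of 8, 7 of 8 and 8 of 8, with 4.89%, 2.12% and 11.9% over all genes, from which nothing is read.

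**Figure D1:**
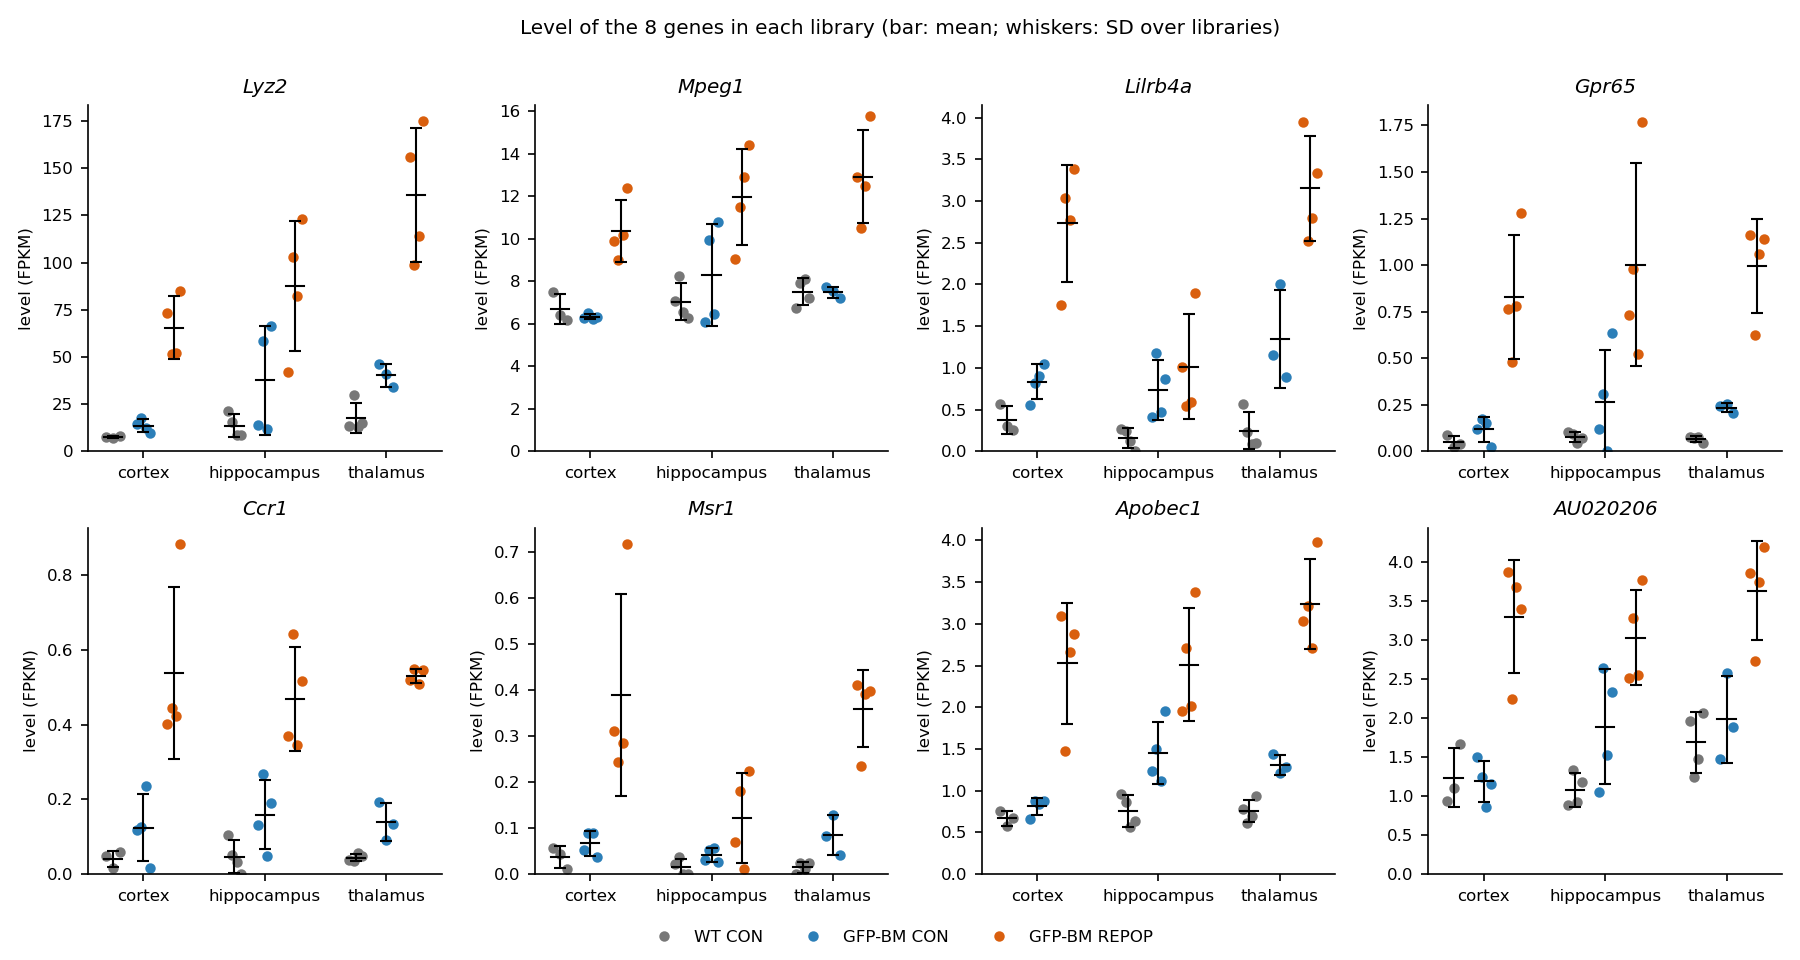
Level of each gene in every library (y axis, FPKM, linear from 0) by region (x axis) and treatment (grey WT CON, blue GFP-BM CON, orange GFP-BM REPOP), with points for libraries, bars for means and whiskers for the SD. In the cortex and thalamus the orange points of all 8 genes lie above the blue ones, while in the hippocampus they overlap for 6 of the 8.

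Of the antimicrobial genes, *Lyz2* was the most abundant of the 8. In the cortex it was at 7.55, 6.86 and 7.96 FPKM in WT CON libraries, at 14.5, 17.6, 12.6 and 9.57 in GFP-BM CON and at 73.5, 51.7, 52.0 and 85.0 in GFP-BM REPOP. Hippocampus levels were 21.4, 15.6, 8.61 and 8.72 FPKM in WT CON, 13.7, 58.4, 11.9 and 66.2 in GFP-BM CON and 41.9, 103, 82.4 and 123 in GFP-BM REPOP. Thalamus levels were 13.4, 29.7, 12.8 and 14.8 FPKM in WT CON, 46.2, 40.9 and 34.1 in GFP-BM CON and 156, 98.7, 114 and 175 in GFP-BM REPOP. The 3 groups did not overlap in the cortex or the thalamus, whereas in the hippocampus 2 GFP-BM CON libraries were as low as WT CON and the other 2 reached into the GFP-BM REPOP range. Mean levels in the cortex went from 7.46 ± 0.556 FPKM (SD, n = 3) over 13.6 ± 3.35 (n = 4) to 65.6 ± 16.5 (n = 4), which is 1.82 times and then 4.84 times. In the thalamus the same means were 17.7 ± 8.03 (n = 4), 40.4 ± 6.04 (n = 3) and 136 ± 35.8 (n = 4), or 2.29 times and then 3.37 times. For cortex, hippocampus and thalamus in turn, the log2 transplant step of *Lyz2* was 0.82, 1.16 and 1.27 (SE 0.20, 0.57 and 0.29), with limma adjusted p = 0.12, 0.24 and 0.067. Without GFP-BM CON replicate 4 the hippocampus value was 0.75. Its repopulation step was 2.27 (SE 0.19) in cortex, 1.52 (SE 0.57) in hippocampus and 1.72 (SE 0.29) in thalamus.

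*Mpeg1* differed from *Lyz2* in having nearly the same level before and after transplant. In the cortex it was at 7.52, 6.43 and 6.17 FPKM in WT CON, at 6.27, 6.52, 6.22 and 6.34 in GFP-BM CON and at 9.90, 8.99, 10.2 and 12.4 in GFP-BM REPOP. In the thalamus it was at 6.76, 7.92, 8.13 and 7.24 FPKM in WT CON, at 7.73, 7.53 and 7.20 in GFP-BM CON and at 12.9, 10.5, 12.5 and 15.8 in GFP-BM REPOP. GFP-BM CON lay within the WT CON range in both regions and every GFP-BM REPOP library lay above both. Hippocampus levels were 7.08, 8.25, 6.58 and 6.28 FPKM in WT CON, 6.07, 9.95, 6.45 and 10.8 in GFP-BM CON and 9.06, 11.5, 12.9 and 14.4 in GFP-BM REPOP. There the 2 GFP-BM CON libraries that were high for *Lyz2* were high for *Mpeg1* too. The transplant step of *Mpeg1* was -0.08 in cortex (95% confidence interval -0.30 to 0.14, adjusted p = 0.79), 0.20 in hippocampus (adjusted p = 0.58) and 0.00 in thalamus (-0.30 to 0.29, adjusted p = 0.99). Its repopulation step was 0.70 (SE 0.09) in cortex, 0.54 in hippocampus and 0.76 (SE 0.13) in thalamus, where mean levels were 1.73 times those of GFP-BM CON.

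Among the surface receptors, *Lilrb4a* had the largest transplant step of the 8 on the log2(FPKM + 0.1) scale in all 3 regions, although by the ratio of mean FPKM *Ccr1* (3.08) and *Gpr65* (2.36) exceeded *Lilrb4a* (2.20) in the cortex and *Msr1* (5.97) exceeded it (5.48) in the thalamus. Cortex levels were 0.569, 0.306 and 0.260 FPKM in WT CON, 0.554, 0.823, 0.906 and 1.05 in GFP-BM CON and 1.75, 3.03, 2.77 and 3.38 in GFP-BM REPOP. In the hippocampus it was at 0.266, 0.240, 0.123 and 0 FPKM in WT CON, at 0.407, 1.18, 0.473 and 0.870 in GFP-BM CON and at 1.01, 0.545, 0.589 and 1.90 in GFP-BM REPOP. Thalamus levels were 0.563, 0.237, 0.0832 and 0.0971 FPKM in WT CON, 1.15, 2.00 and 0.888 in GFP-BM CON and 3.95, 2.52, 2.80 and 3.34 in GFP-BM REPOP. In the hippocampus all GFP-BM CON libraries lay above all WT CON libraries, but those of GFP-BM REPOP overlapped with GFP-BM CON. Its transplant step was 0.99 (SE 0.28, adjusted p = 0.15) in cortex, 1.76 (SE 0.51, adjusted p = 0.084) in hippocampus and 2.19 (95% confidence interval 1.24 to 3.15, adjusted p = 0.058) in thalamus. Its repopulation step was 1.59 (SE 0.26) in cortex and 1.23 (SE 0.43) in thalamus, and 0.36 (SE 0.51) in hippocampus. With 1 library left out at a time the hippocampus value ran from 0.03, without GFP-BM REPOP replicate 4, to 0.60, without GFP-BM CON replicate 2. In the hippocampus and thalamus the transplant step of *Lilrb4a* was thus the larger of its 2 steps in log2. Its WT CON reads were few, at 20 summed over the hippocampus and 28 over the thalamus, with 0 in 1 hippocampus library. In GFP-BM CON they summed to 92 and 124 and in GFP-BM REPOP to 115 and 400. With 1 in place of 0.1 added to FPKM its transplant step in the thalamus was 0.90. Under other processing its repopulation step minus its transplant step there came as near to 0 as -0.06. The near-identical paralog *Lilrb4b* had no row in the table, and how reads shared by the pair were assigned is not known.

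*Gpr65* was rare in WT CON and close to 1 FPKM after repopulation. In the cortex it was at 0.0882, 0.0213 and 0.0404 FPKM in WT CON, at 0.122, 0.175, 0.152 and 0.0237 in GFP-BM CON and at 0.765, 0.480, 0.783 and 1.28 in GFP-BM REPOP. In the hippocampus the levels were 0.103, 0.0955, 0.0430 and 0.0727 FPKM in WT CON, 0.122, 0.309, 0 and 0.634 in GFP-BM CON and 0.733, 0.978, 0.525 and 1.77 in GFP-BM REPOP. In the thalamus they were 0.0786, 0.0708, 0.0774 and 0.0452 FPKM in WT CON, 0.246, 0.253 and 0.207 in GFP-BM CON and 1.16, 0.624, 1.06 and 1.14 in GFP-BM REPOP. The thalamus showed 3 separate groups with little spread in GFP-BM CON, whereas the cortex and hippocampus each had a GFP-BM CON library as low as WT CON. These levels rest on 7 reads in all WT CON, 20 in all GFP-BM CON and 129 in all GFP-BM REPOP cortex libraries, on 14, 45 and 162 in the hippocampus, and on 12, 32 and 182 in the thalamus. The transplant step of *Gpr65* was 0.50 (adjusted p = 0.58), 0.69 (adjusted p = 0.47) and 1.00 (SE 0.26, adjusted p = 0.096) in the cortex, hippocampus and thalamus. Its repopulation step was 2.08 (SE 0.35) in cortex, 1.82 (SE 0.56) in hippocampus and 1.68 (SE 0.26) in thalamus. Without 1 GFP-BM CON library, replicate 4 or replicate 3, its transplant step in the hippocampus was 0.24 or 1.20. The 5 libraries in which *Gpr65* reached the filter level of 1 FPKM were all GFP-BM REPOP. Because 0.1 was added to every FPKM value, log2 differences of genes at this level understate the change: the mean in the thalamus was 3.46 times that of WT CON after transplant and a further 4.24 times after repopulation.

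*Ccr1* and *Msr1* stayed below 1 FPKM in every library, did not pass the filter on low values, and are read from a fit with no filter. *Ccr1* ranged from 0.0153 to 0.0580 FPKM in WT CON, from 0.0170 to 0.236 in GFP-BM CON and from 0.403 to 0.883 in GFP-BM REPOP cortex libraries. Its summed reads were 8, 29 and 116 in the cortex, 12, 40 and 104 in the hippocampus and 11, 27 and 134 in the thalamus. In the thalamus its groups did not overlap, and the 4 GFP-BM REPOP libraries there lay within 0.509 to 0.548 FPKM. *Msr1* ranged from 0 to 0.0240 FPKM in WT CON, from 0.0421 to 0.129 in GFP-BM CON and from 0.235 to 0.412 in GFP-BM REPOP thalamus libraries. Its reads summed to 10, 22 and 119 in the cortex, 5, 15 and 38 in the hippocampus and 5, 22 and 129 in the thalamus. *Msr1* was the one gene of the 8 whose GFP-BM REPOP libraries in the hippocampus, at 0.0116 to 0.225 FPKM, overlapped with those of WT CON at 0 to 0.0365. The transplant step of *Ccr1* was 0.59, 0.79 and 0.71 in the cortex, hippocampus and thalamus, with adjusted p = 0.47, 0.19 and 0.11. That of *Msr1* was 0.29, 0.31 and 0.67, with adjusted p = 0.73, 0.60 and 0.19. The repopulation step of *Ccr1* was 1.55 (SE 0.33), 1.18 (SE 0.34) and 1.42 (SE 0.20). That of *Msr1* was 1.48 (SE 0.28), 0.53 and 1.32 (SE 0.24), with 0.30 in the hippocampus without GFP-BM REPOP replicate 4 and 0.82 without replicate 3.

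*Apobec1*, the RNA editing enzyme, had WT CON means of 0.666, 0.753 and 0.755 FPKM in the 3 regions. In the cortex it was at 0.753, 0.575 and 0.671 FPKM in WT CON, at 0.658, 0.875, 0.840 and 0.872 in GFP-BM CON and at 3.09, 1.47, 2.66 and 2.88 in GFP-BM REPOP. Hippocampus libraries held 0.963, 0.858, 0.560 and 0.631 FPKM in WT CON, 1.24, 1.50, 1.11 and 1.95 in GFP-BM CON and 1.95, 2.71, 2.01 and 3.38 in GFP-BM REPOP. Thalamus libraries held 0.777, 0.615, 0.695 and 0.933 FPKM in WT CON, 1.44, 1.21 and 1.28 in GFP-BM CON and 3.03, 3.22, 2.71 and 3.98 in GFP-BM REPOP. In the hippocampus and thalamus the 3 groups followed each other without overlap (the closest 2 hippocampus libraries both round to 1.95), and in the cortex GFP-BM CON overlapped with WT CON. The transplant step of *Apobec1* was 0.25 (adjusted p = 0.67) in cortex, 0.86 (SE 0.26, adjusted p = 0.091) in hippocampus and 0.73 (SE 0.18, adjusted p = 0.084) in thalamus. Its repopulation step was 1.48 (SE 0.21), 0.75 and 1.23 (SE 0.18) in the same order.

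The long non-coding RNA *AU020206* was present in WT CON at 0.882 to 2.07 FPKM over the 3 regions. Its cortex mean was 1.24 ± 0.381 FPKM (SD, n = 3) for WT CON, 1.19 ± 0.266 (n = 4) in GFP-BM CON and 3.30 ± 0.729 (n = 4) in GFP-BM REPOP. In the hippocampus these means were 1.08 ± 0.217, 1.89 ± 0.734 and 3.04 ± 0.603 (n = 4 each), and in the thalamus 1.69 ± 0.389 (n = 4), 1.98 ± 0.554 (n = 3) and 3.64 ± 0.634 (n = 4). WT CON and GFP-BM CON overlapped in all 3 regions. Its transplant step was -0.04 in cortex (adjusted p = 0.96), 0.69 in hippocampus (adjusted p = 0.17) and 0.21 in thalamus (adjusted p = 0.55), and its repopulation step was 1.39 (SE 0.22), 0.72 and 0.86. The counting was not stated to use strand, so reads from an overlapping antisense transcript cannot be told apart from its own.

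Tested over all 14710 genes with limma-trend, a fit per region, none of the 8 genes passed an adjusted p of 0.05 at the transplant step. There 0 of 8 passed in the cortex, where 0.320% of all genes did, and 0 of 8 in the hippocampus and thalamus, where 0% of all genes did. The smallest adjusted p of any gene was 0.0022, 0.071 and 0.058 in these regions. Unadjusted p-values under 0.05 were reached by 2, 4 and 6 of the 8, beside 16.0%, 23.9% and 20.7% of all genes. By voom on the recovered reads 0 of the 8 passed in any region. For the repopulation step, whose GFP-BM REPOP libraries selected the genes, nothing is read from such counts: 0 of 8 passed in the hippocampus and thalamus, beside 0.0272% and 0% of all genes, and 6 and 8 had an unadjusted p under 0.05, beside 11.7% and 0.945%. The p-values set each difference between groups against the spread between these libraries.

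When all 9 groups of libraries shared 1 estimate of the spread, some calls changed. For the transplant step *Apobec1* (adjusted p = 0.0096) and *Lilrb4a* (adjusted p = 0.0077) then passed in the hippocampus, where 19.4% of all genes did. In the thalamus *Apobec1* (adjusted p = 0.046) and *Lilrb4a* (adjusted p = 0.0049) passed, beside 9.16% of all genes.

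The base composition of the libraries differed between WT CON and GFP-BM CON in the cortex and thalamus. The median log2 level of genes rich in G and C minus that of genes poor in them was 1.09 to 3.65 in WT CON and 0.45 to 0.83 in GFP-BM CON thalamus libraries, and 0.75 to 1.24 and 0.43 to 0.58 in the cortex. In the hippocampus it was 1.75 to 3.39 and 0.71 to 2.08, so that the groups overlapped. GFP-BM REPOP libraries, at 0.41 to 0.99, 1.46 to 2.60 and 0.51 to 0.94 in the cortex, hippocampus and thalamus, overlapped with GFP-BM CON in each region. With every library corrected for the GC content and length of genes, the transplant step of *Lyz2* in the thalamus was 1.30. In the same region that of *Apobec1* was 0.61 and that of *Lilrb4a* 1.48. *Mpeg1* was then at -0.28 and *Gpr65* at 0.40, and the scarce *Ccr1* and *Msr1* turned to -0.30 and -0.44 there. In the hippocampus *Gpr65* went down to 0.20, *Ccr1* to 0.01, *Mpeg1* to -0.03 and *Msr1* to -0.54, and in the cortex *Ccr1* went down to 0.23 and *Msr1* to -0.13. Those of *Lyz2*, *Apobec1* and *Lilrb4a* moved by less than 1.5 times in every region. *Lilrb4a* moved the most of them, from 1.76 to 1.18 in the hippocampus and from 2.19 to 1.48 in the thalamus. In the cortex it was then at 0.80. *Lyz2*, at 0.85 in the cortex and 1.20 in the hippocampus, then exceeded *Lilrb4a* in these regions.

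**Figure D2:**
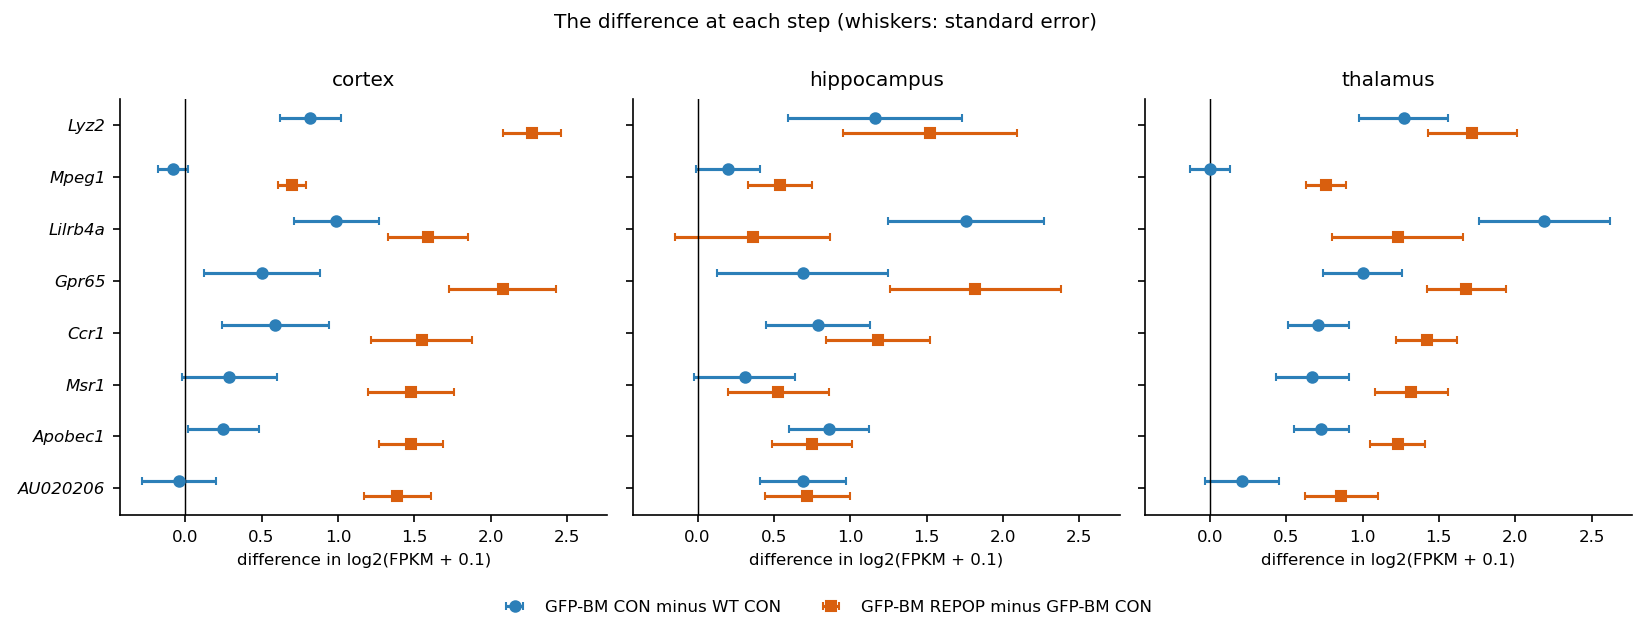
Difference in log2(FPKM + 0.1) (x axis) of each gene (y axis) at the transplant step (blue circles) and the repopulation step (orange squares) in the 3 regions, with whiskers for the standard error. In the cortex every square lies to the right of its circle. In the hippocampus the whiskers of most pairs overlap. The circle lies to the right of the square for *Lilrb4a* in the hippocampus and thalamus and, barely, for *Apobec1* in the hippocampus.

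Whether the repopulation step exceeded the transplant step was taken as the difference between the 2 steps, a contrast that is uncorrelated with the one that selected the genes where WT CON and GFP-BM REPOP are of equal size, as in the hippocampus and thalamus. In the cortex, where the sizes were 3 and 4 and part of the difference had been known, it is given with no test. There it was above 0 for all 8 genes, with a median of 1.21 in log2 and values between 0.60 for *Lilrb4a* and 1.58 for *Gpr65*. It was 1.44 for *Lyz2* (SE 0.34) and 0.77 for *Mpeg1* (SE 0.17). In the hippocampus the median was 0.28, with 6 of 8 above 0, and 0 of 8 passed, beside 0% of all genes, also by unadjusted p, beside 20.8%. *Lilrb4a* was the gene farthest below 0 there, at -1.39 (95% confidence interval -3.31 to 0.52, adjusted p = 0.37), followed by *Apobec1* at -0.11, and *Gpr65* was the farthest above, at 1.13. In the thalamus the median was 0.65, with 7 of 8 above 0. There *Lilrb4a* was at -0.97 (-2.67 to 0.73, adjusted p = 0.78) and *Mpeg1* at 0.77 (0.24 to 1.29, adjusted p = 0.78, the 1 gene of the 8 with an unadjusted p under 0.05, beside 4.83% of all genes), and 0 of 8 passed, beside 0% of all genes. By voom 0 of the 8 passed in either region. For the scarce *Gpr65*, *Ccr1* and *Msr1* the added 0.1 lowers the transplant step more than the repopulation step, which raises this difference. By the ratio of mean FPKM the transplant step was the larger for *Msr1* in the thalamus (5.97 against 4.24) and for *Ccr1* in the hippocampus (3.41 against 2.96). By this ratio it was also the larger for *Lyz2* (2.77 against 2.33), *Apobec1* (1.92 against 1.74) and *AU020206* (1.75 against 1.61) in the hippocampus. The same held for *Lilrb4a* in the hippocampus (4.66 against 1.38) and thalamus (5.48 against 2.35). The repopulation step was the larger for *Gpr65* and *Mpeg1* in both regions and, barely, for *Msr1* in the hippocampus (2.92 against 2.89). In the thalamus it was also the larger for *Ccr1*, *Lyz2*, *Apobec1* and *AU020206*.

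Set side by side as FPKM, most of the total difference between GFP-BM REPOP and WT CON lay in the repopulation step. The share of it that GFP-BM CON already showed had a median over the 8 genes of 8.64% in cortex, 29.4% in hippocampus and 19.4% in thalamus, and was under 50% in 8, 7 and 8 of 8 genes. These shares are descriptions, since the levels in GFP-BM REPOP selected the genes. *Lilrb4a* had the highest share in each region, at 19.3% in cortex, 67.4% in hippocampus (49.9% to 103% with 1 library left out) and 37.8% in thalamus (26.6% to 45.6%). *Mpeg1* had the lowest share in the cortex, at -10.2%, and in the thalamus, at -0.467%, because its mean in GFP-BM CON lay just below that of WT CON. With 1 library left out the value in the cortex ran from -18.8% to 0.780%. *Lyz2* was at 10.5%, 32.4% (19.5% to 44.0%) and 19.2%, and *Ccr1* at 16.8% (9.28% to 23.9%), 26.5% and 19.5%. *AU020206* was at -2.25% in the cortex (-10.1% to 7.39%) and at 41.4% in the hippocampus (28.5% to 55.7%). On the log2 scale, on which equal ratios count the same, the shares of *Lyz2* were 26.6%, 43.2% and 42.4% and those of *Lilrb4a* 38.3%, 82.9% and 64.2%. In the hippocampus the log2 share was 53.3% for *Apobec1* and 49.0% for *AU020206*, and the remaining genes ran from 26.9% (*Mpeg1*) to 40.1% (*Ccr1*). In the thalamus the genes other than *Lyz2* and *Lilrb4a* ran from -0.220% (*Mpeg1*) to 37.3% (*Gpr65*).

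**Figure D3:**
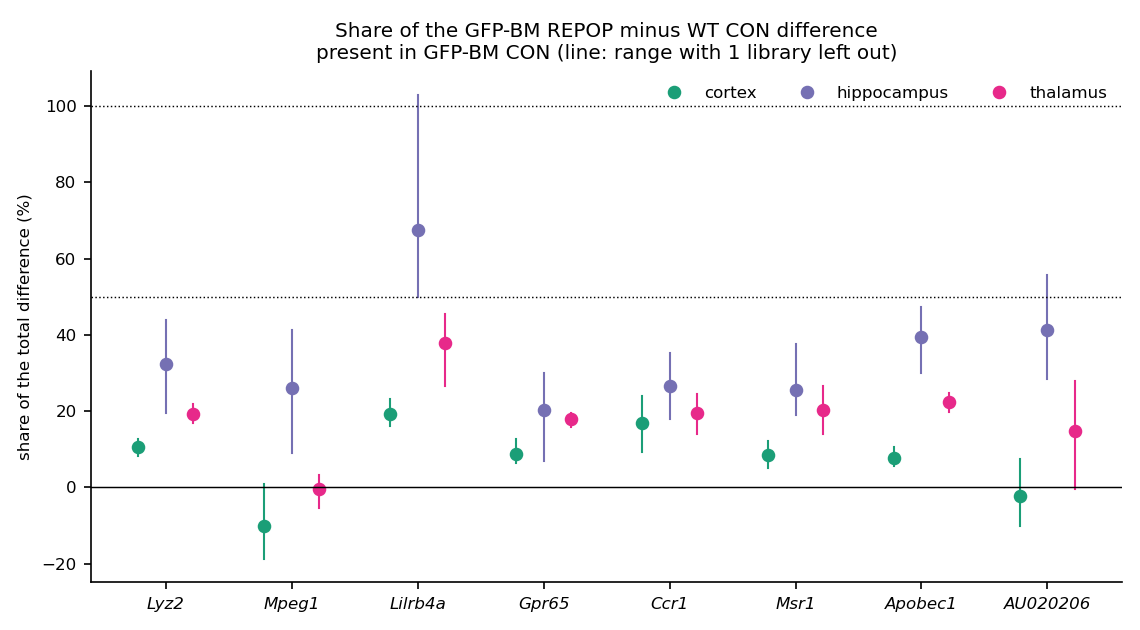
Share of the GFP-BM REPOP minus WT CON difference in mean FPKM that is present in GFP-BM CON (y axis, percent) for each gene (x axis) in the cortex (green), hippocampus (purple) and thalamus (pink), with lines for the range when 1 library is left out and dotted lines at 50 and 100. *Lilrb4a* is highest in each region and reaches 67.4% in the hippocampus, and cortex points of all 8 genes lie at or under 19.3%.

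The hippocampus of GFP-BM CON was split by animal. Replicates 2 and 4, from animals 6 and 9, were among the highest 2 libraries of their group for 8 and 7 of the 8 genes, and the libraries of animals 18 and 7 were near WT CON for *Lyz2*, *Mpeg1* and *Gpr65*. In the cortex the library of animal 6 was among the highest 2 for 7 of the 8 genes and that of animal 9 for 3, and *Mpeg1* was between 6.22 and 6.52 FPKM in all 4 animals. The order differed in the thalamus, which had 3 libraries and none of animal 7. Animal 18 was there among the highest 2 for 7 of the 8 genes, animal 6 for 6 and animal 9 for 3. Animal 9 was the lowest for 5. Summed markers of all myeloid cells (*Ptprc*, *Itgam*, *Csf1r*, *Aif1* and 6 others) were 164 and 193 FPKM in the hippocampus libraries of animals 6 and 9 and 143 and 125 in the other 2, and choroid plexus markers were 1118 and 6330 against 48.9 and 4891. The part of either in the split was not tested. Left out together, a choice made after their values were seen, the median transplant step of the 8 genes in the hippocampus was 0.28 and the median repopulation step 1.09, and the shares had a median of 10.3% (-16.0% to 33.1%). *Lyz2* then had a transplant step of 0.02 and a repopulation step of 2.66, and *Lilrb4a* 1.23 and 0.89. Without GFP-BM REPOP replicate 4 instead, the median repopulation step was 0.60 and the median share 38.1%. The steps were then 1.53 for *Gpr65*, 1.32 for *Lyz2*, 1.13 for *Ccr1*, 0.61 for *AU020206*, 0.60 for *Apobec1*, 0.45 for *Mpeg1*, 0.30 for *Msr1* and 0.03 for *Lilrb4a*.

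**Figure D4:**
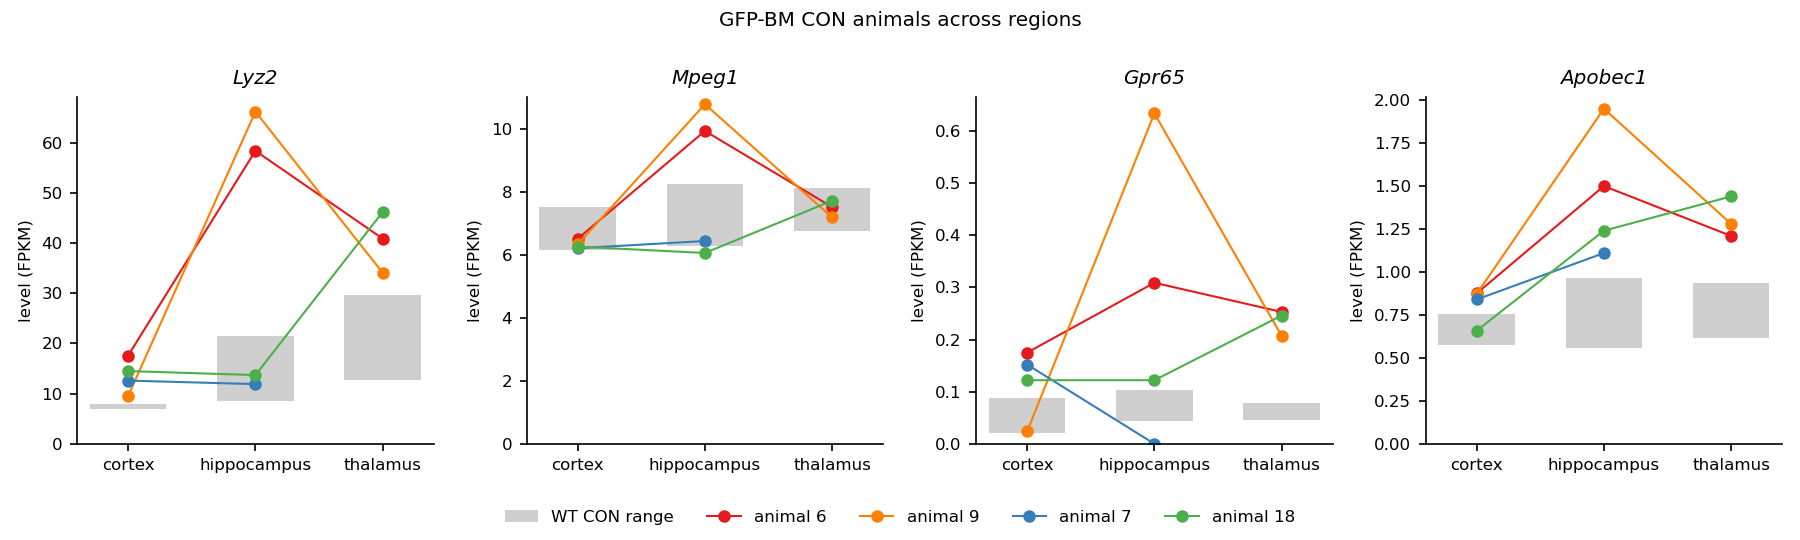
Level (y axis, FPKM, linear from 0) of *Lyz2*, *Mpeg1*, *Gpr65* and *Apobec1* in the 4 GFP-BM CON animals (coloured lines) across regions (x axis), with grey bands for the WT CON range. Animals 6 and 9 stand above animals 7 and 18 in the hippocampus for all 4 genes and, by less, in the cortex for *Mpeg1* and *Apobec1*. In the thalamus animal 18 stands above animals 6 and 9 for *Lyz2*, *Mpeg1* and *Apobec1*, and animal 7 has no point there.

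Regions were compared for the transplant step in 1 fit of all 34 libraries that took the animal as a random effect. The difference between hippocampus and cortex had a median of 0.30 in log2 over the 8 genes and that between thalamus and cortex 0.42, both above 0 for 8 of 8, and that between thalamus and hippocampus 0.02. None of the 8 passed in any of the 3, and neither did any gene of the table (0%, 0% and 0%). An unadjusted p under 0.05 was found for 0 of the 8 in each, beside 10.1%, 3.45% and 2.63% of all genes. The largest was that of *Lilrb4a* between thalamus and cortex, at 1.19 (SE 0.67, 95% confidence interval -0.18 to 2.55, adjusted p = 0.71). Under other processing the hippocampus minus cortex difference fell as low as -0.41 for *Gpr65*, -0.23 for *Ccr1* and -0.40 for *Msr1*. That of thalamus minus cortex fell to -0.05, -0.52 and -0.30 for these genes and to -0.15 for *Mpeg1*. The 8 genes were selected together, so their directions are not independent of each other. Ordered by mean level, GFP-BM REPOP thalamus ranked first for *Lyz2*, *Mpeg1*, *Lilrb4a*, *Apobec1* and *AU020206*, at 136, 12.9, 3.15, 3.23 and 3.64 FPKM, and overlapped with the next group for each. *Lilrb4a* was the one gene for which a GFP-BM CON group, that of the thalamus at 1.34 FPKM, ranked above a GFP-BM REPOP group, that of the hippocampus at 1.01 FPKM, and the ranges of both overlapped.

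The 8 genes were also set against myeloid genes in general. The mean log2 level of 10 genes of all myeloid cells was 2.95 ± 0.11, 2.77 ± 0.04 and 2.97 ± 0.15 (SD) from WT CON over GFP-BM CON to GFP-BM REPOP in the cortex, 3.08 ± 0.14, 3.16 ± 0.20 and 3.16 ± 0.29 in the hippocampus and 3.21 ± 0.20, 2.98 ± 0.04 and 3.24 ± 0.09 in the thalamus. Of its 9 genes tested, *Csf1r*, the receptor that PLX3397 inhibits and that microglia need, fell in the cortex at the transplant step, by 0.74 (SE 0.07, adjusted p = 0.0022). Relative to that mean, the transplant step of *Lyz2* was 1.00, 1.08 and 1.50 for cortex, hippocampus and thalamus, and its repopulation step was 2.06, 1.52 and 1.46. For *Mpeg1*, which microglia express too, the relative steps were 0.10 and 0.49 in the cortex and 0.23 and 0.50 in the thalamus. Relative to the same mean, *Lilrb4a* stood at 2.43 in the thalamus at the transplant step and 0.96 at the repopulation step.

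Markers of other cell types were summed as well. Of 12 monocyte genes 6 were in the table, and *Ccr2* and *Ly6c2*, which define blood monocytes, were not among them. Those 6 summed to 3.22 to 10.3 FPKM over all libraries. Border macrophage markers (*Mrc1*, *Cd163*, *Pf4* and 4 others) had cortex means of 6.87 FPKM in WT CON, 6.06 in GFP-BM CON and 12.6 in GFP-BM REPOP. Microglia markers (*P2ry12*, *Tmem119*, *Sall1* and 7 others) had cortex means of 141, 123 and 111. Neutrophil markers had 2 of 8 genes in the table, at 0.0862 to 3.39 FPKM in sum, T cell markers 2 of 7, at 0.81 to 16.5, and B cell markers 0 of 4. Of 65 marker genes tested in the 14 lists, which also covered red cells, endothelial cells, choroid plexus and the dissected regions, 0 rose at the transplant step in any region and 2 fell, both in the cortex, *Csf1r* and a microglia marker. At the repopulation step 0 rose or fell in the hippocampus or thalamus. Under an unadjusted 0.05 were 9, 7 and 12 of the 65 (beside 16.0%, 23.9% and 20.7% of all genes) at the transplant step and 14 and 3 (beside 11.7% and 0.945%) at the repopulation step, and voom called 3, 0 and 0, and 1 and 0. The part of these cells in the differences of the 8 genes was not tested.

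Relatives and partners of the 8 genes were looked up as well, 69 genes in 10 lists, of which 35 were in the table and 25 were tested. By limma-trend 0 of the 25 passed at the transplant step in any region or at the repopulation step in the hippocampus and thalamus, and 0 by voom. Under an unadjusted 0.05 were 5, 2 and 6 of the 25 (beside 16.0%, 23.9% and 20.7% of all genes) and 5 and 2 (beside 11.7% and 0.945%). For 4 of the 25 all repopulated cortex libraries were above those of GFP-BM CON (1.41% of all genes). These were *Cxcr4*, *Cxcl16*, *Stab1* and *Lair1*, of which *Cxcr4* and *Stab1* are named after their values were seen. Of the chemokine receptors 7 were tested, among them *Cxcr4*, the receptor of CXCL12. The means of the other relatives run from WT CON over GFP-BM CON to GFP-BM REPOP and are those of the cortex unless another region is named. Of 6 ligands of *Ccr1*, 2 were in the table: *Ccl6* was at 1.13, 0.766 and 0.500 FPKM in the cortex and 1.50, 0.963 and 0.602 in the thalamus, and *Ccl9*, under the filter, at 0.404, 0.264 and 0.0744 in the cortex. *Ccr1* and these ligands thus had their means in opposite order in the cortex. *Cxcr4* was at 0.509, 0.669 and 1.40 FPKM. Of the scavenger receptors 6 were tested beside *Msr1*. *Scara3* was at 9.61, 7.72 and 7.50 FPKM, *Stab1*, which encodes stabilin-1, at 2.35, 2.41 and 4.02, and *Cxcl16* at 0.586, 0.696 and 1.38. Of the other proton sensors, *Gpr4* was at 1.31, 1.27 and 1.27 FPKM in the cortex, where *Gpr65* went from 0.050 over 0.118 to 0.827. Of the leukocyte receptors related to *Lilrb4a*, *Lair1* was at 1.92, 1.81 and 2.01 FPKM in the cortex and *Pirb*, under the filter, at 0.239, 0.290 and 0.307, and the 3 phosphatases that such inhibitory receptors recruit, *Ptpn6*, *Ptpn11* and *Inpp5d*, were all tested without a call. *Apobec3*, the other APOBEC gene in the table, was at 0.976, 1.14 and 1.10 FPKM, and of the cofactors of *Apobec1* *Rbm47* was at 0.263, 0.180 and 0.279 and *Syncrip* at 10.3, 12.1 and 11.9, so that *Syncrip* was abundant and *Rbm47* scarce in each cortex group. *Lyz1*, the near-identical paralog of *Lyz2*, had no row in the table, and *Lyzl4*, another lysozyme gene, was at 0.720, 0.872 and 1.10 FPKM. Of pore-forming immune proteins beside *Mpeg1*, *C8g* was at 0.650, 0.773 and 0.855 FPKM and *C7* at 0.483, 0.770 and 0.690.

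The likeness of the 8 genes across libraries is a description, since all had been selected on the same difference between groups, which such correlations hold. With each gene centred on its region mean in log2(FPKM + 0.1), Pearson's r over the 34 libraries, which share animals and treatments, was between 0.74 and 0.95 for the 28 pairs, with a median of 0.87. The closest pairs were *Lyz2* with *Gpr65* and *Gpr65* with *Ccr1*, at 0.95, and the least alike were *Lilrb4a* with *AU020206* and with *Mpeg1*, at 0.74. Of the other genes tested, those most like the mean of the 8 were *Cybb*, a subunit of the phagocyte NADPH oxidase, at 0.96, *Ms4a6c* at 0.96 and *Ms4a7* at 0.95, both membrane proteins of macrophages, followed by *Clec7a*, the beta-glucan receptor, at 0.92, *C3ar1*, a complement receptor, at 0.92, the mannose receptor *Mrc1* at 0.91 and *Adgre1*, which encodes F4/80, at 0.90. The list of 10 closed with the gene of Entrez ID 100861785 at 0.88, *Ms4a6b* at 0.88 and *Cxcl16*, a scavenger receptor and chemokine, at 0.87. Gene by gene, the nearest were *Ms4a7* for *Lyz2* at 0.96 and for *Ccr1* at 0.93, *Cybb* for *Apobec1* at 0.94, for *Lilrb4a* at 0.91 and for *Msr1* at 0.88, *Adgre1* for *Mpeg1* at 0.96, *Clec7a* for *Gpr65* at 0.93 and *Ms4a6c* for *AU020206* at 0.91.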

How the data were processed

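RNA from 1 brain region of 1 mouse was sequenced per library. The authors aligned reads with STAR, counted them per gene with Rsubread, computed the deposited FPKM values (called RPKM in their methods) with limma and edgeR, and their processing notes name mm10. For 100.0% of values (tolerance 0.01 reads) whole reads could be recovered, between 17085018 and 26010509 per library. Genes with an FPKM of at least 1 in at least 3 libraries that were protein coding, lncRNA or of unknown biotype were tested (14710). Groups came from the labels. The main test was limma-trend (limma 3.58.1, R 4.3.3) on log2(FPKM + 0.1), 3 groups per region, two-sided, with Benjamini-Hochberg adjustment over all genes. It was tested on simulated reads. In these the spread beyond counting was small and only genes of many reads were changed, so that test does not cover scarce genes. Descriptions were computed in Python 3.11.15. The genes, gene lists and rules were chosen with earlier results of these data known. Named were the 8 genes, their paralogs, the genes most like them and at most 4 genes per list in written order. Alternatives were other pseudocounts and filters, normalizations, designs, weights, voom and leaving out each library. The replicate number did not pair libraries. Results of a few genes on the lists are not reported here.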

Additional observations from a re-analysis of the deposited data

Results flagged for a closer look

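In 5 of 56 sets of 4 libraries (1 gene in 1 group), a single library lay far from the other 3, by a criterion that chance meets in about 1 of 20 sets. *Lyz2* was at 29.7 FPKM in WT CON thalamus replicate 2, against 12.8 to 14.8 in the other 3. *Apobec1* was at 0.658 FPKM in GFP-BM CON cortex replicate 1, against 0.840 to 0.875. *Ccr1* was at 0.883 FPKM in GFP-BM REPOP cortex replicate 4, against 0.403 to 0.446, and *Msr1* in the same library was at 0.717 FPKM, against 0.244 to 0.312. *Msr1* was at 0.235 FPKM in GFP-BM REPOP thalamus replicate 2, against 0.392 to 0.412.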

How the results depend on the processing

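Under the alternatives tried, other than leaving out a library, the count of the 8 genes called was within 1.5 times the main count, 0 throughout, in 116 values and moved in 9. For the transplant step the counts were 2 in the hippocampus and 2 in the thalamus with array quality weights (beside 2643 and 654 of all 14710 genes), 2 and 2 with all 9 groups in a fit (19.4% and 9.16%), and 1 in the thalamus with a pseudocount of 1 (*Lilrb4a*, 1.75%) and 1 with quantile normalization (*Lyz2*, 2.14%). At the repopulation step, from which nothing is read, 5 were called in the hippocampus with all 9 groups (4.52%), and in the thalamus 1 without a trend (a gene under the filter, beside 0.0125% in the unfiltered fit) and 5 with array quality weights (0.0476%). Leaving out 1 library gave 0 to 1 for the transplant step in the thalamus, 1 without WT CON replicate 1 (*Lilrb4a*, 8.01%), and 0 elsewhere. With the replicate block 0 genes were called in every comparison. Same-numbered libraries deviated together in few of 32 pairs (r -0.43 to 0.49, 5 over 0.1, 4 highest with their own number), so the numbers did not pair libraries. Of the log2 values 23 reversed direction, 758 kept direction and side of the threshold and 21 came to pass it. These numbers include the differences between regions for *Lilrb4a* only. At the transplant step the correction for GC content and length, added after the data were seen, gave -0.13 for *Msr1* in the cortex, -0.03 for *Mpeg1* and -0.54 for *Msr1* in the hippocampus, and -0.30 for *Ccr1* and -0.44 for *Msr1* in the thalamus. It could not be made for *AU020206*, which has no GC value. *AU020206* in the thalamus was at -0.14 with quantile normalization and -0.09 with weights, and without animals 6 and 9 *Mpeg1* and *Gpr65* in the hippocampus were at -0.16 and -0.25. For the difference between steps in the hippocampus, *Apobec1* was at 0.04 with a pseudocount of 1, 0.45 with quantile normalization and 0.40 without animals 6 and 9. *Ccr1* was at -0.15 with a pseudocount of 0.01, -0.22 with weights and -0.15 with voom, *Msr1* at -0.46, -0.07 and -0.82, *AU020206* at -0.01 with median-ratio scaling and -0.55 with weights, and *Lyz2* at -0.76 with weights. In the thalamus *Msr1* was at -0.09 with voom, and *Lilrb4a* between thalamus and hippocampus was at -0.07 with a pseudocount of 0.01. With 1 library left out, reversals were found at the transplant step in the cortex for *AU020206* (-0.20 to 0.18) and *Mpeg1* (-0.13 to 0.01), and for the difference between steps in the hippocampus for *Lyz2* (-0.46 to 1.18), *Apobec1* (-0.33 to 0.18), *AU020206* (-0.45 to 0.39), *Ccr1* (-0.10 to 0.78) and *Msr1* (-0.01 to 0.50). The causes were not tested. The planned edgeR quasi-likelihood fits on recovered reads were not run, and voom was used. Group sizes of 3 and 4 and, for *Gpr65*, *Ccr1* and *Msr1*, 5 to 182 reads per group limit what could be called. So do, for *Lilrb4a*, 20 to 37 reads per WT CON group.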
